A study of Mus musculus with 40 samples.

Results

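The Hox genes are the homeobox genes of the 4 mammalian Hox clusters, and they were taken as every row of the count table whose symbol is Hox, a cluster letter and a paralog number. The rule gave 39 of the 24062 genes in the table, with 11 members in cluster A, 10 in B and 9 each in C and D. RNA was sequenced from primary mouse embryonic fibroblasts (MEFs) of 13.5 dpc embryos at passage 3, on a mixed background of C57BL/6J and 129P2OlaHsd, with the constitutive Sall2 allele wild type (WT), heterozygous (Het) or knocked out (KO). Sall2 encodes a zinc finger transcription factor, and the KO allele was made in 129P2-derived embryonic stem cells. Each culture came from a single embryo (1 WT, 1 Het and 3 KO) and was sequenced untreated and after 16 h with 1 µM doxorubicin, a DNA-damaging topoisomerase poison. WT and Het therefore had no replicate, and the spread between samples came from KO and from terms shared by the genotypes.

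Hox genes encode transcription factors that tell cells where they lie along the head to tail axis and along the limb. Within a cluster the genes stand in the order in which they are used, from paralog number 1 for the most anterior positions to 13 for the tail, the distal limb and the genital tubercle, and genes with the same number in different clusters descend from 1 ancestral gene. Fibroblasts keep much of this code in culture, so it records the body parts from which a culture was derived. In the mm10 (GRCm38) annotation, cluster A lies on the minus strand of chromosome 6 (chr6:52155590-52260880), and clusters B (chr11:96194316-96368256), C (chr15:102921103-103036852) and D (chr2:74668310-74765142) lie on plus strands.

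The libraries held 15560728 to 24122414 gene counts, of which 6740 to 10311 were Hox counts. A count of 3, taken as the detection floor, corresponded to 0.124 to 0.193 counts per 1000000 counts (CPM) before scaling, and such limits cover counting error only. The doxorubicin libraries labelled KO2 and KO3 held identical counts for 24062 of 24062 genes and were counted once, as KO2, which left 9 libraries. Sall2 itself had 756 counts in the untreated WT library, 587 in Het and 388, 432 and 424 in KO1, KO2 and KO3, and with doxorubicin 188 in WT, 164 in Het and 76 and 81 in KO1 and KO2, so the KO allele still gave reads. Counts of Y-linked genes were 3806 and 6397 in untreated KO1 and KO3 and at most 3 in untreated WT, Het and KO2, so the cultures differed in sex.

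The Het libraries and the untreated KO3 library stood apart. The summed level of 9 fibroblast markers (Col1a1, Col1a2, Col3a1, Pdgfra, Pdgfrb, Thy1, Vim, Dcn and Lum), in CPM scaled by the trimmed mean of M values, as all CPM below, was 11611 in untreated Het, 10288 in untreated KO3 and 13298 in Het with doxorubicin, against 31794 to 50244 in the other 6 libraries. All 9 fibroblast markers passed the filter on low counts. The summed level of 7 interferon-induced genes was 1611, 1814 and 1219 CPM in those 3 libraries and 17.1 to 197.8 CPM in the others, and 5 macrophage markers (Csf1r, Cd68, Ptprc, Lyz2 and Cd14) summed to 478, 371 and 503 CPM against 82.9 to 146.4 CPM. Most of the macrophage sum was Lyz2, at 339, 289 and 381 CPM in those 3 libraries. Lyz2, Ptprc and Cd14 were each higher there than in all other libraries. Csf1r and Cd68 were not: untreated KO3 had 22.7 CPM of Csf1r, against 28.1 in untreated WT, and 9.32 CPM of Cd68, against 16.4 in treated WT. Dcn alone of the fibroblast markers was higher in untreated KO3 (68.1 CPM) than in untreated WT (65.3) and KO2 (39.3). Pdgfrb, at 217 and 218 CPM in untreated Het and KO3, was above the 53.9 to 77.3 CPM of treated WT, KO1 and KO2. Pdgfra, at 13.1 CPM in untreated KO3, was above treated WT, at 12.6 CPM. Most of the fibroblast sum was Col1a1, Col1a2, Col3a1 and Vim, each lower in the Het and untreated KO3 libraries than in all others. No interferon or macrophage gene in these lists was at or under 3 counts in all 9 libraries. Fewer cells of a type and less RNA per cell cannot be told apart in such bulk samples. The doxorubicin calls of Hox genes are also given without these libraries, and the untreated KO against WT calls without KO3. The calls of the other gene lists are given only with them.

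The first question was which Hox genes the untreated cultures used. Below, values are listed in the order WT, Het, KO1, KO2, KO3 for untreated and WT, Het, KO1, KO2 for doxorubicin libraries. The untreated MEFs had a mixed code that covered most of the axis: 35 of 39 members had over 3 counts in all 5 untreated libraries. Divided by exon length, the members with the highest median level were Hoxc6 at 19.4 CPM per kb, Hoxb9 at 18.9, Hoxa5 at 13.5 and Hoxb2 at 10.8. Hoxd11 and Hoxd13, of the distal limb, followed at 10.5 and 10.3 CPM per kb. The libraries of these neighbours overlapped: Hoxc6 ran from 13.7 to 21.8 and Hoxb9 from 15.8 to 29.9 CPM per kb. Cluster B had the largest median share of the summed Hox level, of 35.2% of CPM per kb (27.7% to 38.5% over the 5 libraries), and cluster D the smallest, 16.0% (12.8% to 21.7%). Clusters A and C gave medians of 26.2% and 22.4%. The order did not hold in every culture, since A was above B in untreated KO2 and D above C in untreated Het. With doxorubicin the largest median was that of cluster C, 27.6%, and that of B was 24.7%.

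**Figure D1:**
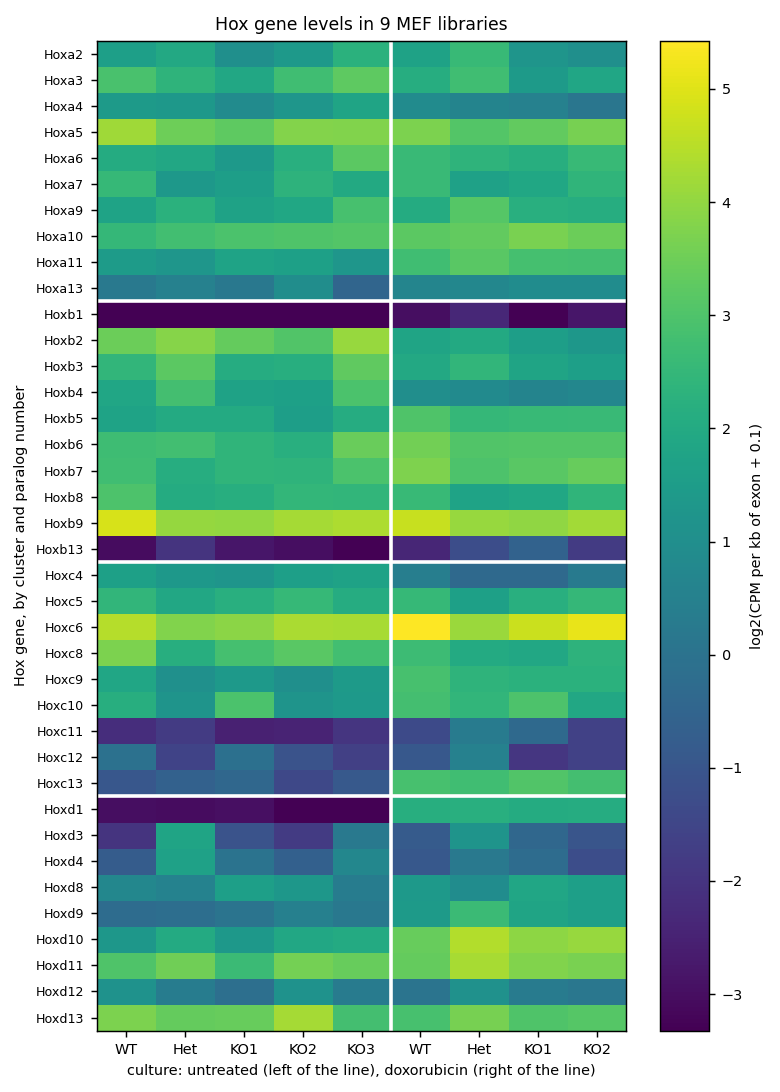
Heat map of the level of 38 Hox genes (rows, by cluster and paralog number) in the 9 MEF libraries (columns), as log2 of CPM per kb of exon plus 0.1. Most members were present in all libraries, while Hoxd1 and Hoxc13 were dark in untreated and bright in doxorubicin libraries.

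In cluster A, Hoxa5, a central gene needed for the lung and the cervical and thoracic skeleton, was the most abundant per length. Untreated libraries had 33.5, 20.9, 17.7, 26.3 and 25.4 CPM of Hoxa5 and doxorubicin libraries 24.1, 15.7, 18.7 and 22.8 CPM. The groups overlapped, with WT highest among the untreated cultures, and the change with doxorubicin did not pass the test (log2 fold change -0.29 ± 0.17, SE, FDR = 0.193). Hoxa3, which patterns the pharyngeal arches, had 19.1, 12.99, 9.55, 17.1 and 24.5 CPM untreated and 10.98, 16.97, 6.85 and 9.03 CPM with doxorubicin. Hoxa2, a determinant of the second pharyngeal arch and the hindbrain, had 5.23, 6.74, 3.42, 4.46 and 8.42 CPM and 5.71, 10.4, 4.01 and 3.48 CPM. Both were highest in KO3 among untreated libraries and in Het among doxorubicin libraries. Hoxa7 had 14.3, 6.08, 7.19, 12.3 and 9.77 CPM untreated and 14.95, 7.72, 9.03 and 12.97 CPM with doxorubicin. In all 4 cultures sequenced in both states Hoxa7 was higher with doxorubicin, by 0.07 to 0.34 on the log2 scale, which is less than the range between cultures. Hoxa9, which acts in the limb and in blood progenitors, had 10.6, 15.1, 10.4, 11.7 and 23.3 CPM and 13.01, 27.8, 14.4 and 13.8 CPM, with KO3 and then Het highest in the untreated libraries. Hoxa4, Hoxa6 and Hoxa13, which passed no test either, had means under 5 CPM. Hoxa4 was below every untreated library in all doxorubicin libraries, at 1.56 to 2.78 against 2.81 to 5.36 CPM, with a log2 fold change of -0.91 ± 0.29 (SE, FDR = 0.025).

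In cluster B, Hoxb9, a thoracic gene, had the highest median level per length in untreated libraries. Hoxb9 had 77.1, 42.6, 40.7, 48.6 and 52.1 CPM in untreated libraries and 66.8, 43.6, 40.6 and 47.4 CPM with doxorubicin. WT was the highest library in both states, and the drug left a log2 fold change of -0.09 ± 0.13 (SE, FDR = 0.573). Hoxb3, an anterior gene of the hindbrain and neck, had 18.9, 32.7, 14.8, 15.6 and 34.2 CPM untreated and 13.2, 18.5, 11.8 and 10.5 CPM with doxorubicin. The untreated Het and KO3 libraries held about the same level of Hoxb3, above the range of 14.8 to 18.9 CPM in the other 3. Hoxb5 had 6.26, 7.53, 7.54, 5.45 and 7.83 CPM and 15.1, 10.5, 11.2 and 11.3 CPM. All 4 doxorubicin libraries lay above all untreated ones for Hoxb5, whose test stayed just short of the threshold (log2 fold change 0.78 ± 0.21, SE, FDR = 0.012). Hoxb6 had 12.7, 13.3, 10.1, 8.87 and 21.1 CPM untreated and 23.3, 15.95, 16.5 and 16.5 CPM with doxorubicin, where the untreated KO3 library reached into the doxorubicin range. Hoxb8 had 20.4, 10.8, 11.6, 14.5 and 14.1 CPM and 15.5, 8.64, 9.47 and 13.6 CPM, highest in WT in both states. Hoxb1, the hindbrain member, had no count in any untreated library, which allows up to 0.124 to 0.165 CPM before scaling, and 1, 4, 0 and 2 counts with doxorubicin. Hoxb13, the terminal member of the cluster, had 0 to 8 counts untreated and 4 to 23 with doxorubicin, and was too low for the drug test.

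In cluster C, Hoxc6, a thoracic and forelimb-level gene, led. Hoxc5 had 15.5, 10.7, 13.1, 16.9 and 12.3 CPM in untreated and 16.9, 8.89, 13.1 and 16.4 CPM in doxorubicin libraries, with a log2 fold change of 0.01 ± 0.18 (SE, FDR = 0.977). Hoxc5 was the tested member with the smallest fitted change. Hoxc8 had 24.1, 8.19, 13.2, 16.9 and 12.7 CPM untreated and 11.7, 7.47, 6.91 and 9.12 CPM with doxorubicin, and the WT library was the highest in both states. Hoxc10, a gene of the lumbar level and hindlimb, had 8.46, 4.26, 14.4, 4.19 and 4.91 CPM and 13.3, 10.1, 14.8 and 7.01 CPM. Untreated KO1 and WT were above the other 3 cultures for Hoxc10, and KO1 was again highest with doxorubicin. Hoxc11 had 5, 9, 3, 3 and 7 counts untreated and 12, 46, 25 and 10 with doxorubicin. Its treated libraries, at 0.458 to 2.34 CPM, lay above all untreated ones, at 0.151 to 0.372 CPM. Hoxc11 was too low for the filter of the drug test, but passed when every gene with at least 1 count was tested. Hoxc12 stayed at or under 1.37 CPM in all 9 libraries.

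In cluster D, Hoxd13, required for digits and the genital tubercle, had 32.1, 25.3, 25.6, 46.9 and 17.4 CPM in untreated and 18.2, 30.2, 19.8 and 21.2 CPM in doxorubicin libraries. KO2 was the highest and KO3 the lowest untreated library, a range of 2.70 times. Hoxd11, of the forearm and wrist, had 8.90, 12.7, 6.88, 13.4 and 11.6 CPM and 11.2, 21.2, 14.9 and 13.9 CPM, highest in Het with doxorubicin. Hoxd8 had 4.25, 3.76, 8.19, 6.55 and 3.20 CPM untreated and 6.90, 4.93, 9.75 and 8.11 CPM with doxorubicin, and KO1 and KO2 were the highest libraries in both states. Hoxd12 had 2.06 to 5.34 CPM untreated and 2.33 to 5.13 CPM with doxorubicin. Hoxd3 and Hoxd4, the anterior members between Hoxd1 and Hoxd8, differed most between untreated cultures. Hoxd3 had 0.489, 10.9, 1.21, 0.606 and 3.42 CPM untreated, a range of 22.3 times, and 1.54, 7.11, 2.12 and 1.28 CPM with doxorubicin. Hoxd4 had 1.22, 7.94, 2.31, 1.38 and 4.01 CPM, a range of 6.50 times, and 1.09, 2.74, 1.95 and 0.825 CPM. Het and then KO3 were the highest untreated libraries for both genes, and Het stayed highest with doxorubicin. These are the libraries with high interferon and low fibroblast levels given above, and the part of those levels in the Hoxd3 and Hoxd4 values was not tested. In the annotation, 68.6% of the Hoxd3 and 45.1% of the Hoxd4 exon length overlap Gm28230, a gene on the same strand that the count table does not list, so the reads of both genes are uncertain where they share positions with it. A further 10.7% of Hoxd3 overlaps the antisense gene Hoxd3os1, which had at most 3 counts in every library.

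Doxorubicin was compared with no treatment over all 9 libraries, with genotype as a covariate. The members that rose with doxorubicin were central and posterior ones, except for Hoxd1 at the anterior end of cluster D, and the members that fell were anterior ones. At an FDR under 0.01, 9 of 35 tested members were higher, 25.7% of them against 21.9% of the 14883 genes tested, and 3 were lower, 8.57% against 20.2% of all genes. The share of Hox genes called higher was thus near the background, and the share called lower was below it. The 9 were Hoxd1, Hoxc13, Hoxd10, Hoxd9, Hoxa11, Hoxc9, Hoxb7, Hoxc6 and Hoxa10, and the 3 were Hoxb2, Hoxc4 and Hoxb4. The median log2 fold change was 0.19 over the 35 tested members and -0.02 over all genes tested. In 9 of the tested members all doxorubicin libraries lay above all untreated ones (24.4% of all genes did), and in 4 they all lay below (23% of all genes). The 4 members not tested, Hoxb1, Hoxb13, Hoxc11 and Hoxc12, were too low for the filter. Hoxd1, with at most 1 count in any untreated library, passed the filter through the doxorubicin libraries alone.

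Hoxd1 and Hoxc13, from opposite ends of the paralog series, changed most. Hoxd1, the most anterior gene of cluster D (chr2:74762980-74765142, plus strand), had 1, 1, 1, 0 and 0 counts in the untreated libraries and 166, 164, 137 and 169 counts with doxorubicin. It was at or under 1 count in every untreated culture and at 7.63 to 8.33 CPM in every doxorubicin library. Against the floor of 3 counts per untreated library (mean 0.144 CPM), the mean with doxorubicin, 7.99 ± 0.351 CPM (SD, n = 4), was at least 55.3-fold higher. Its edgeR quasi-likelihood test gave FDR = 1.29e-05. Hoxc13, the gene for hair and nails at the posterior end of cluster C (chr15:102921103-102928814, plus strand), had 1.03, 1.36, 1.61, 0.661 and 1.08 CPM untreated and 18.1, 16.4, 19.9 and 17.1 CPM with doxorubicin. The treated libraries lay far above all untreated ones, and the log2 fold change was 3.96 ± 0.28 (SE, FDR = 2.17e-05). With doxorubicin, Hoxd1 and Hoxc13 were nearly equal between cultures, including the Het culture that otherwise stood apart.

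Posterior genes of clusters D, A and C followed. Hoxd10, which acts in the hindlimb and lumbar spinal cord (chr2:74691924-74695105, plus strand), had 4.30, 7.24, 4.42, 6.72 and 7.16 CPM untreated and 18.8, 38.3, 27.6 and 30.2 CPM with doxorubicin, a log2 fold change of 2.25 ± 0.19 (SE, FDR = 4.20e-05). Its next neighbour Hoxd9 had 1.61, 1.70, 2.01, 2.75 and 2.21 CPM and 5.61, 13.3, 7.24 and 6.37 CPM, a log2 fold change of 1.92 ± 0.29 (SE, FDR = 7.08e-04). For both genes Het was the highest treated library and WT the lowest, and no treated library overlapped an untreated one. The next gene on the other side, Hoxd11, had a log2 fold change of 0.48 ± 0.22 (SE, FDR = 0.092), and Hoxd12 and Hoxd13 had values of -0.27 ± 0.40 and -0.43 ± 0.31, which did not pass the test. Hoxa11, a gene of the forearm and of the uterus, had 6.16, 5.33, 7.44, 6.99 and 5.31 CPM untreated and 14.95, 20.5, 16.4 and 15.8 CPM with doxorubicin, a log2 fold change of 1.43 ± 0.20 (SE, FDR = 4.12e-04). The untreated cultures were within 5.31 to 7.44 CPM of Hoxa11, and every treated one was above them. Hoxa10, which also acts in the uterus and the lumbar skeleton, had 17.6, 21.4, 23.8, 25.01 and 26.5 CPM and 29.3, 30.99, 39.2 and 34.5 CPM, a log2 fold change of 0.59 ± 0.13 (SE, FDR = 0.0043). Hoxc9, of the thoracic level, had 8.26, 4.76, 5.98, 4.57 and 6.21 CPM and 17.1, 11.99, 11.1 and 11.1 CPM, a log2 fold change of 1.08 ± 0.18 (SE, FDR = 0.0012). The groups of Hoxa10 and of Hoxc9 did not overlap, although WT was the lowest culture in both states for Hoxa10 and the highest in both for Hoxc9.

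Of the central genes, Hoxb7 and Hoxc6 rose. Hoxb7 had 8.46, 5.46, 6.73, 6.55 and 9.86 CPM untreated and 16.9, 10.2, 11.6 and 13.4 CPM with doxorubicin, a log2 fold change of 0.81 ± 0.20 (SE, FDR = 0.0076). Hoxc6 had 34.5, 21.6, 23.3, 31.4 and 30.7 CPM and 67.8, 27.3, 41.9 and 55.4 CPM, a log2 fold change of 0.72 ± 0.17 (SE, FDR = 0.0065). Hoxc6 was higher with doxorubicin in all 4 cultures, but the treated Het library, at 27.3 CPM, lay within the untreated range.

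The 3 genes that fell belong to the anterior part of the clusters. Hoxb2, which specifies hindbrain segments (chr11:96350525-96354012, plus strand), had 17.6, 23.2, 16.7, 13.4 and 27.1 CPM untreated and 5.46, 6.35, 4.74 and 3.90 CPM with doxorubicin. The treated libraries lay within 3.90 to 6.35 CPM, below all untreated ones, and the change was a log2 fold change of -1.98 ± 0.25 (SE, FDR = 2.95e-04). Hoxb4, which acts in the cervical skeleton and in blood progenitors (chr11:96318267-96321638, plus strand), had 9.09, 17.7, 8.14, 7.88 and 19.7 CPM and 4.82, 4.42, 3.68 and 3.99 CPM, a log2 fold change of -1.55 ± 0.35 (SE, FDR = 0.0050). Hoxc4, the anterior end of cluster C (chr15:103018934-103036852, plus strand), had 7.72, 6.29, 5.83, 7.66 and 8.10 CPM and 3.18, 1.78, 1.78 and 2.89 CPM, a log2 fold change of -1.58 ± 0.25 (SE, FDR = 8.75e-04). Untreated Het and KO3, the cultures with high interferon-induced genes, had the highest Hoxb2 and Hoxb4, and the values without them are given here. With only the WT, KO1 and KO2 cultures the log2 fold changes were -1.77 ± 0.16 for Hoxb2, -1.01 ± 0.16 for Hoxb4 and -1.43 ± 0.23 for Hoxc4 (SE), with FDR = 4.25e-06, 2.44e-04 and 2.62e-04. In the annotation, 58.5% of the Hoxb2 and 63.9% of the Hoxb3 exon length overlaps the antisense gene Hoxb3os, which the count table does not list. Hoxd11 overlaps Gm28309, on its own strand and also not listed, over 23.9% of its exon length. Antisense genes overlap 24.8% of Hoxa11 (Hoxa11os), 23.25% of Hoxa7 and 21.2% of Hoxa3. The strand setting of the counting is not given in the sources used here, and without strand such partners cannot be told apart.

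**Figure D2:**
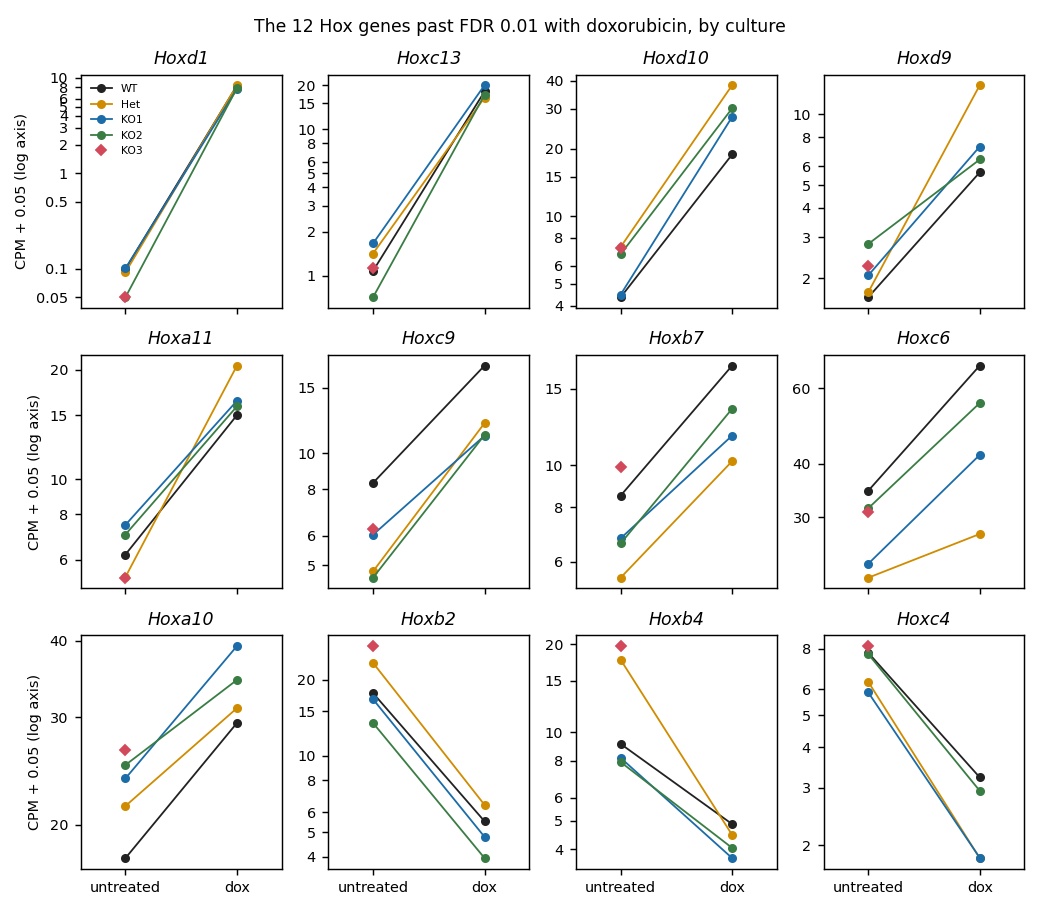
CPM plus 0.05 (log axis) of the 12 Hox genes past FDR 0.01, untreated and with doxorubicin, with a line for each culture sequenced in both states and a diamond for the untreated KO3 library. All lines of 9 genes rise and all lines of Hoxb2, Hoxb4 and Hoxc4 fall.

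Because the same embryo gave both states in 4 cultures, the change was also fitted with the embryo as a replicate block. All 12 calls held, and 11 members were higher (30.6% of all genes tested) and 5 lower (28.8%). The members added were Hoxb5 with a log2 fold change of 0.84 ± 0.18, Hoxb6 with 0.68 ± 0.15, Hoxb3 with -0.57 ± 0.13 and Hoxc8 with -0.76 ± 0.18 (SE). In a block fit added after seeing the data, the library held under both labels was paired with KO3 instead of KO2. Hoxa10 and Hoxb7 then no longer passed and none of these 4 members was added, which left 7 higher and 3 lower. That library had 0 Y-linked counts, against 6397 in untreated KO3 and 1 in untreated KO2, so this pairing joins libraries of different sex. With the WT, KO1 and KO2 cultures alone all 12 calls held too, with log2 fold changes of 4.04 ± 0.25 for Hoxc13, 2.29 ± 0.17 for Hoxd10, 1.60 ± 0.21 for Hoxd9, 1.19 ± 0.13 for Hoxa11 and 0.63 to 1.06 for Hoxa10, Hoxc6, Hoxb7 and Hoxc9 (SE). In those cultures 11 members were higher against 35.4% of all genes and 7 were lower against 32.4%. The lower ones then also held Hoxa3 (-0.76 ± 0.22), Hoxb3, Hoxc8 and Hoxd13 (-0.82 ± 0.19, log2 fold change, SE). With KO libraries alone, Hoxd1, Hoxc13 and Hoxd10 passed and no member was called lower.

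By paralog number, the 11 tested members numbered 1 to 4 had a median log2 fold change of -0.83, with 9 of 11 negative. The 11 numbered 5 to 8 had a median of 0.19, with 8 of 11 positive, and the 13 numbered 9 to 13 a median of 0.59, with 10 of 13 positive. All 4 members of paralog group 4 had negative values, -0.89 to -1.58, and all 3 of group 10 had positive values, 0.59 to 2.25. Over the tested members, the Spearman correlation of paralog number and log2 fold change was 0.47 (n = 35 genes), and 0.60 without Hoxd1 (n = 34). These are descriptions across genes that share libraries and neighbour each other, so no p is given. The relation differed by cluster, with Spearman values of 0.85 over the 11 tested members of cluster A, 0.60 over 8 of B, 0.75 over 7 of C and -0.07 over 8 of D without Hoxd1. Within each culture, without Hoxd1, the median log2 ratio of numbers 1 to 4 was -0.54 in WT, -0.79 in Het, -0.43 in KO1 and -0.93 in KO2. The median of numbers 9 to 13 was 0.65, 0.87, 0.78 and 0.46 in the same cultures, so each culture moved the same way.

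**Figure D3:**
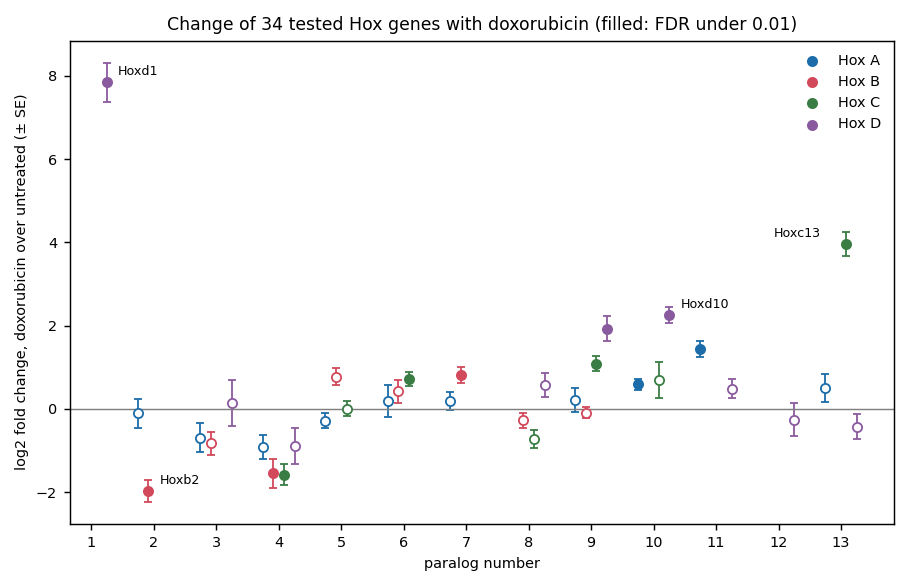
Log2 fold change with doxorubicin (± SE) of 34 tested Hox genes against paralog number, coloured by cluster and filled where FDR was under 0.01. The called genes numbered 2 to 4 lie below 0 and those numbered 6 to 13 above it, with Hoxd1 at the fitted value of 7.84, which depends on the prior count because it had at most 1 count untreated.

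As a share of the summed Hox level, paralog group 2 (Hoxa2 and Hoxb2) fell from a median of 7.78% untreated (5.68% to 10.3%) to 2.56% with doxorubicin (1.96% to 4.27%), and group 4 from 5.18% (4.60% to 8.46%) to 2.07% (1.79% to 2.15%). The ranges of both groups did not overlap. In group 2 it was Hoxb2 that fell, while Hoxa2 had a log2 fold change of -0.11 ± 0.34 (SE, FDR = 0.802). Hoxa2 was higher with doxorubicin in 3 of the 4 cultures sequenced in both states. Group 10 went from 7.30% (5.92% to 11.2%) to 14.96% (10.7% to 16.9%), with untreated KO1 inside the treated range. Group 6 had the largest median share in both states, 15.2% and 20.5%, although group 9 was above it in untreated WT and KO1 and groups 9 and 10 were above it in treated Het. The summed level of all members was 157 to 213 CPM per kb untreated and 209 to 248 with doxorubicin. On library totals without the scaling factors it was 131 to 260 untreated and 192 to 289 with doxorubicin, so the states overlapped more widely.

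**Figure D4:**
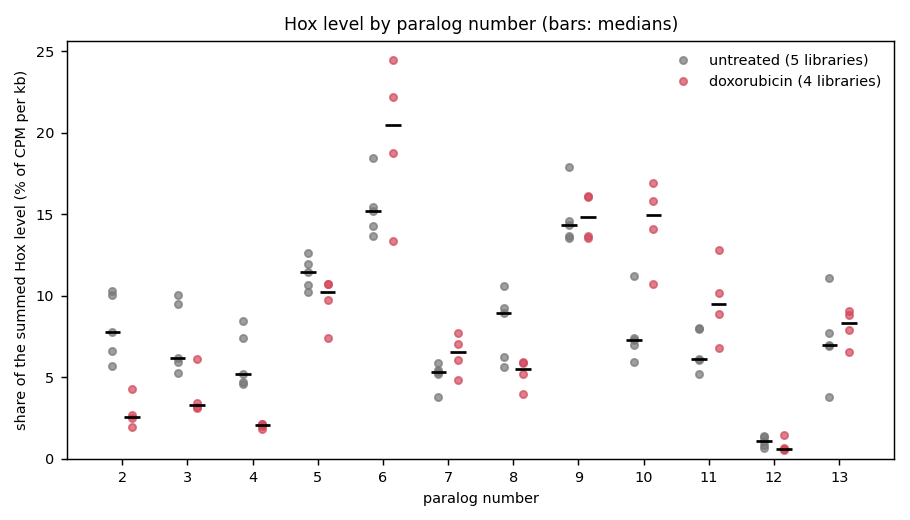
Share of the summed Hox level (percent of CPM per kb of exon) by paralog number (groups 2 to 13) in each untreated (grey) and doxorubicin (red) library, with black bars for the medians. The treated libraries lie below all untreated ones for groups 2 and 4.

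RefSeq (GRCm38.p6) held promoter entries for 22 of the 39 members, 24 windows in all, and of the 12 called members for Hoxd1, Hoxd10, Hoxd9, Hoxa11, Hoxa10, Hoxb4 and Hoxc4. Shown here, as examples of promoters of genes that changed in opposite directions, are Hoxd1 and Hoxd10, which of these rose most, and Hoxb4 and Hoxc4, which fell. The 250 bases before the RefSeq start of each are given 5′ to 3′ on the plus strand, in lower case. Capitals mark a CCAAT box (CCAAT or its reverse complement ATTGG) or a TATA box (TATAAA or its reverse complement TTTATA).
Hoxd1, chr2:74762730-74762979: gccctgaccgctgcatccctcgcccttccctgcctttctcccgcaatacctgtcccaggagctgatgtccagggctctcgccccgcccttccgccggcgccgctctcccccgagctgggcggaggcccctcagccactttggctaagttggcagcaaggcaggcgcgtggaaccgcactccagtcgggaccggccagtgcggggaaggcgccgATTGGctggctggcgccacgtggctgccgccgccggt
Hoxd10, chr2:74691641-74691890: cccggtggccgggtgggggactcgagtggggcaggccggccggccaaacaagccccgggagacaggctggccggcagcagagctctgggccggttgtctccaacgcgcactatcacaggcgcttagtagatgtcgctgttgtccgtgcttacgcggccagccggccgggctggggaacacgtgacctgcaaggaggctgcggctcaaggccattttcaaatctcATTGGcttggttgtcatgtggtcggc
Hoxb4, chr11:96318017-96318266: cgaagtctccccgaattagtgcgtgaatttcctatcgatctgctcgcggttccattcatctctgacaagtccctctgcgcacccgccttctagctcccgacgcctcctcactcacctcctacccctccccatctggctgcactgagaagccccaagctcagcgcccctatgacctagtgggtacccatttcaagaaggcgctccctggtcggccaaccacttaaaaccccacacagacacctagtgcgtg
Hoxc4, chr15:103034145-103034394: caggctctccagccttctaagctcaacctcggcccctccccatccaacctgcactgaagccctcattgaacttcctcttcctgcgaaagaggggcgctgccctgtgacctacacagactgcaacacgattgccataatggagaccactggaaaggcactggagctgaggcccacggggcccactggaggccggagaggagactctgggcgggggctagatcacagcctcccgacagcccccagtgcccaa
Hoxd1 and Hoxd10, which rose, each held 1 CCAAT box on the reverse strand, whose first base lies at -37 and -26 from the start, and Hoxb4 and Hoxc4, which fell, held none in these windows. The boxes did not separate genes that rose from genes that fell: Hoxd9 and Hoxa11, which rose, held none either, and Hoxa10 held 1 in only 1 of its 2 windows. The CCAAT box is common: 14 of the 24 Hox windows and 33.9% of 32851 RefSeq promoters of the same length held one. None of the 4 windows held a TATA box, which 4 Hox windows and 12.4% of all promoters did. The RefSeq start of Hoxc4 lies inside the gene as GENCODE annotates it, so the window belongs to 1 of its starts. The match of these letters is a description and not a test of any factor.

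KO was compared with WT to ask whether loss of Sall2 moved the positional code. In untreated cultures no member passed (0 of 35, against 0% of 14470 genes), and 0 members had an unadjusted p under 0.05 in edgeR. With doxorubicin no member passed either (0 of 37, against 0.197% of 15256 genes), and 7 members had an unadjusted p under 0.05, against 2.84% of all genes. The fits rested on 1 WT library in each state, with 2 residual degrees of freedom untreated and 1 with doxorubicin. DESeq2 called 0 members in both comparisons.

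Hoxb9 had the smallest unadjusted p of the members in both states. Its level in untreated KO libraries was 47.1 ± 5.84 CPM (SD, n = 3) against 77.1 CPM in WT, and with doxorubicin 40.6 and 47.4 CPM in the 2 KO libraries against 66.8 CPM in WT. Both KO groups lay below the WT library, with log2 fold changes of -0.69 ± 0.30 (FDR = 1.000) and -0.61 ± 0.19 (FDR = 0.324, SE). The Het libraries, at 42.6 and 43.6 CPM, were also below WT. The 6 other members with an unadjusted p under 0.05 with doxorubicin were Hoxd10 at 0.62 ± 0.22, Hoxb13 at 2.01 ± 0.82, Hoxc9 at -0.63 ± 0.25, Hoxc6 at -0.48 ± 0.19, Hoxb6 at -0.51 ± 0.23 and Hoxc8 at -0.54 ± 0.28 (log2 fold change, SE). None of these passed after adjustment, where their FDR was 0.730 or higher.

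The study's methods remove unwanted variation with RUVg before an exact test. With 1 RUVg factor and the exact test of edgeR, 2 of 35 members passed in untreated cultures, against 1.78% of 14470 genes. They were Hoxb9, lower in KO with a log2 fold change of -0.69 (FDR = 1.57e-04), and Hoxa10, higher in KO with 0.53 (FDR = 0.0048). Hoxa10 had 17.6 CPM in untreated WT and 25.1 ± 1.35 CPM in KO (SD, n = 3), and the Het library had 21.4 CPM. Without KO3, the same procedure called 12 of 35 members, against 17.8% of 13480 genes, and the 12 again held Hoxb9 and Hoxa10. Of those 12, Hoxa10 and Hoxd8 were higher in KO and 10 were lower, among them Hoxa5, Hoxc8 and Hoxb8 with log2 fold changes of -0.62, -0.68 and -0.64. The quasi-likelihood test without KO3 and without a RUVg factor called 0 members, and the parts of the factor and of the test in this difference were not tested. WT is 1 embryo, so genotype and embryo cannot be told apart for it. It was female by its Y-linked counts, as was KO2, with 1 such count in each untreated library. Untreated KO2 had 48.6 CPM of Hoxb9 and 25.01 CPM of Hoxa10, against 77.1 and 17.6 CPM in WT. The part of sex in the other differences was not tested.

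**Figure D5:**
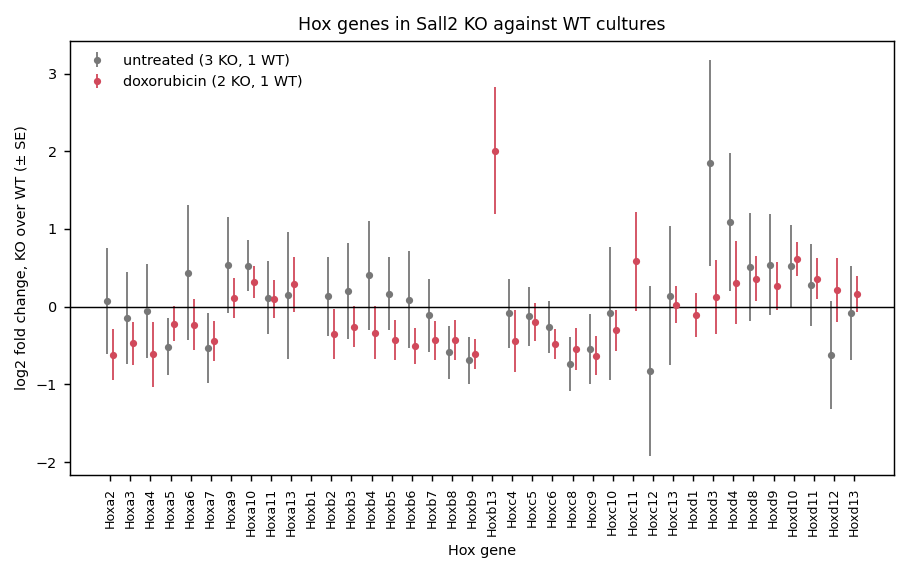
Log2 fold change (± SE) of Hox genes in KO over WT, untreated (grey) and with doxorubicin (red), in the order of cluster and paralog number. None passed FDR 0.01 in the quasi-likelihood test, and Hoxb9 lies below 0 in both states.

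The response to doxorubicin was also compared between genotypes. The interaction of KO and doxorubicin passed for 0 of 38 members, against 0% of 15905 genes, and 0 members had an unadjusted p under 0.05 in edgeR (0.258% of all genes) and 0 passed in DESeq2. The interaction of Het and doxorubicin, in a fit of all 9 libraries, passed for 0 of 38, against 0% of 16656 genes. With 3 residual degrees of freedom these tests show no difference in response and do not show that the responses were alike. Hoxd1 had 8.25 CPM in treated WT, 8.33 in Het and 7.63 and 7.75 in KO1 and KO2, and Hoxc13 18.1, 16.4, 19.9 and 17.1 CPM in the same order.

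Among the other genes of the clusters, Evx1, Evx2 and Hotair rose with doxorubicin. Of the 16 noncoding RNAs and Evx genes listed, 7 were in the count table under the symbols searched and 6 were tested. Of those 6, 3 were higher and 0 lower (21.9% and 20.2% of all genes tested), with a median log2 fold change of 2.06. Evx1 and Hotair, with at most 7 counts in any untreated library, passed the filter on low counts through the doxorubicin libraries. A call of lower was hardly possible for them, so the split by direction is partly set by the filter. The listed Hoxaas3 is in the count table under its synonym 2700086A05Rik and was not included in these counts. Hoxa11os and Mira did not pass, with log2 fold changes of 0.55 ± 0.26 (SE, FDR = 0.102) and 0.06 ± 0.22 (SE, FDR = 0.823). Evx1, the homeobox gene beyond the posterior end of cluster A, had 4, 7, 2, 0 and 0 counts untreated and 26, 29, 24 and 16 counts with doxorubicin (log2 fold change 3.37 ± 0.66, SE, FDR = 0.0027). Evx2, its counterpart beyond Hoxd13, had 14, 11, 4, 15 and 5 and 28, 89, 45 and 59 counts (2.44 ± 0.52, SE, FDR = 0.0040). Treated libraries of both Evx genes lay above all untreated ones. Hotair, a noncoding RNA transcribed antisense from between Hoxc11 and Hoxc12, had 3, 5, 2, 0 and 7 and 25, 86, 30 and 13 counts (3.32 ± 0.68, SE, FDR = 0.0033). Hottip, beyond Hoxa13, had 13, 31, 0, 8 and 13 and 31, 84, 18 and 32 counts and did not pass (1.67 ± 0.61, SE, FDR = 0.045), although it did with the embryo block (FDR = 0.0092). Evx1, Evx2, Hotair and Hottip were all low, with the Het library the highest of the treated ones for each. For Mira the Het library was the lowest treated one, at 4.47 CPM.

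Of the TALE cofactors, with which Hox proteins bind DNA, Meis1, Pknox2 and Pbx2 fell. Of the 8 described here, 3 were lower and 0 higher, against 20.2% and 21.9% of all genes. Meis1 had 29.6, 24.5, 30.1, 27.1 and 21.5 CPM untreated and 7.20, 7.47, 4.51 and 5.32 CPM with doxorubicin (log2 fold change -2.16 ± 0.20, SE, FDR = 6.79e-05). Every treated library was below every untreated one for Meis1. Pknox2 fell by more (-3.07 ± 0.38, SE) and Pbx2 by less (-1.13 ± 0.23, SE), while Meis2, Meis3, Pbx3, Pbx4 and Pknox1 did not pass the test. Pbx4 had 0.929, 1.74, 1.16, 0.441 and 2.75 CPM untreated and 2.78, 6.50, 4.01 and 3.94 CPM with doxorubicin (log2 fold change 1.58 ± 0.46, SE, FDR = 0.018). With the embryo as a block Pbx4 was higher (2.04, FDR = 5.19e-04) and Meis2 lower (-0.65, FDR = 0.0013).

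Of 10 listed regulators upstream of Hox genes, 8 were tested, of which 3 were higher and 0 lower (21.9% and 20.2% of all genes tested). Cdx2 and Cyp26a1, with at most 5 counts in any untreated library, passed the filter on low counts through the doxorubicin libraries. A call of lower was hardly possible for these genes. Cdx2, a caudal homeobox factor that acts on central and posterior Hox genes in the embryo, had at most 1 count in every untreated library and 0.557 to 1.98 CPM with doxorubicin (FDR = 2.94e-04). Cyp26a1 and Cyp26b1 encode enzymes that degrade retinoic acid, a signal to which anterior Hox genes respond. Cyp26a1 had 0, 0.207, 0.101, 0.055 and 0.180 CPM untreated and 2.88, 4.17, 3.51 and 3.44 CPM with doxorubicin (log2 fold change 4.99 ± 0.51, SE, FDR = 9.44e-05). Cyp26b1, far more abundant, had 52.9, 22.6, 44.4, 62.95 and 24.1 CPM and 109.7, 101, 108 and 79.6 CPM (1.32 ± 0.31, SE, FDR = 0.0061). The retinoic acid receptors Rara, Rarb and Rarg and the retinoic acid-synthesizing enzyme Aldh1a2 did not pass the test.

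Of 25 Polycomb, Trithorax and related chromatin regulators, which keep Hox clusters silent or active, 2 were higher and 8 lower, against 21.9% and 20.2% of all genes tested, with a median log2 fold change of -0.25. With the embryo as a block Kdm6a was also higher (FDR = 0.0015) and Kmt2a also lower (FDR = 0.0076). The 2 were Ezh2, the main H3K27 methyltransferase (1.18 ± 0.17, SE, FDR = 5.31e-04), and Jarid2, a partner of the same complex (0.93 ± 0.18, SE, FDR = 0.0025). Ezh2 had 41.1, 25.1, 48.3, 46.2 and 29.8 CPM untreated and 105, 59.04, 82.7 and 94.3 CPM with doxorubicin, with the Het culture the lowest in both states. The 8 were Ezh1, Mtf2, Cbx6, Ring1, Phc2, Ash1l, Kmt2b and Ctcf, from Ezh1 at -1.47 ± 0.30 to Ctcf at -0.61 ± 0.14 (log2 fold change, SE). Ezh1 and Ezh2, alternative catalytic subunits of the same complex, thus changed in opposite directions.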

How the data were processed

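Ribosomal RNA-depleted, stranded RNA-seq libraries were sequenced in 4 runs each, and the authors merged the runs, aligned the reads to mm10 with HISAT2 (version 2.1.0 in the submitters' processing notes) and counted them per gene with HTSeq in union mode. The values deposited by the authors are raw counts per gene, with 10 columns, of which 2 were identical. Members and gene lists were chosen with earlier results of these data known. Differential expression was tested on the counts with edgeR 4.0.16 (glmQLFit, glmQLFTest, TMM, filterByExpr, two-sided, Benjamini-Hochberg adjusted, FDR under 0.01) in R 4.3.3, with DESeq2 1.42.0 as an alternative. Samples were grouped by the labels, and nothing beyond the embryo number states separate cultures, so p-values measure the spread between these samples. The embryo numbers pair the samples because the labels number the embryos alike in both states, and the KO1 minus KO2 differences correlated between states (Pearson r = 0.385 over 14883 genes, 0.607 over 35 members). The doxorubicin library under both labels was taken as KO2, whose Y-linked counts it shares. CPM are TMM-scaled, and levels between Hox genes were compared only per kb of exon (GENCODE vM21). Levels between other genes were compared by CPM, without exon length. Members are accounted for by value, range or count, and 2 genes are not reported here. Values per library are given for members with a mean of at least 5 CPM and those past FDR 0.01. Other genes that passed with doxorubicin are named for the lists of cluster RNAs, cofactors, upstream and chromatin regulators, limb and head genes. The cell type lists also held genes that passed in both directions, such as Olig2 (5.94), Epcam (4.48) and Pdgfrb (-2.80, log2 fold change). Of 5 p53 target genes listed as a check of the drug, 0 were higher and 0 lower, against 21.9% and 20.2% of all genes. With the embryo as a block Cdkn1a, 1 of them, was lower (-0.70, FDR = 8.78e-04). Fits were checked on simulated counts. Alternatives were other normalizations, filters, thresholds, libraries left out, the embryo block and RUVg.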

Additional observations from a re-analysis of the deposited data

How the results depend on the processing

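Hoxd1, Hoxc13 and Hoxd10 passed in all 17 alternatives of the doxorubicin comparison, and none of the 12 called members changed sign in any of them. The count of members called lower, 3, was 5 with DESeq2, 5 with the replicate block, 7 without the untreated Het and KO3 libraries, 7 with WT, KO1 and KO2 only (added after seeing the data) and 6 at FDR under 0.05. With KO libraries only, 3 members were higher and 0 lower, and at FDR under 0.001, 5 were higher. Leaving out 1 embryo at a time gave 4 to 11 members higher and 1 to 5 lower. The lowest counts came without KO1 (4 higher) and without KO2 (5 higher and 1 lower), and 5 were lower without KO3. Hoxb7 passed in 8 of 17 alternatives, Hoxa10 in 9 and Hoxb4, Hoxc6 in 10 each. The 17 include the block fit that paired the shared library with KO3, although their Y-linked counts differ. Without a scaling factor 6 members were higher and 2 lower. Testing every gene with at least 1 count moved the median log2 fold change of all genes from -0.02 to 0.23. For KO against WT untreated, 0 members became 2 with RUVg and the exact test, and 12 when KO3 was also left out. In the interaction, the replicate block gave 0 members (8 genes in all). The cause of these changes was not tested. No quasi-likelihood fit of WT and KO alone could be made for doxorubicin without a KO library, so all libraries were fitted together, with the lone KO sample assumed to vary like the other groups. Members under 5 CPM rest on few counts, and WT and Het on 1 library a state.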

Other observations

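Several limb and head markers also changed with doxorubicin. Of 8 limb genes tested, 5 were higher and 1 lower, against 21.9% and 20.2% of all genes tested. Pitx1 and Tbx4, which mark the hindlimb, had log2 fold changes of 1.94 ± 0.29 (SE, FDR = 6.11e-04) and 0.96 ± 0.22 (SE, FDR = 0.0065). Tbx5, which marks the forelimb, had 6.70, 3.52, 8.59, 12.1 and 5.13 CPM untreated and 5.27, 6.35, 11.1 and 10.04 CPM with doxorubicin and did not pass (0.28 ± 0.30, SE, FDR = 0.459). Pitx1 had 4.35, 2.85, 4.32, 2.92 and 1.89 CPM untreated and 12.2, 14.8, 13.5 and 9.99 CPM with doxorubicin. Msx1, Lmx1b and Hand2 were the other limb genes called higher, and Prrx1, a general limb mesenchyme gene and the most abundant of the list, was lower (-1.88 ± 0.22, SE, FDR = 1.71e-04). With the embryo as a block Shox2 was also higher (FDR = 0.0043). Of 6 tested head genes, against the same shares of all genes, Dlx1 and Dlx2 were higher, with FDR = 8.16e-05 and 1.20e-04, and Dlx5 was lower (-1.91 ± 0.45, SE). Dlx1 had 0.147, 0.993, 0.101, 0.220 and 0.360 CPM untreated and 10.98, 10.7, 8.75 and 7.61 CPM with doxorubicin, so all treated libraries lay above all untreated ones, with a log2 fold change of 4.84 ± 0.47 (SE). Dlx1 passed the filter on low counts only because of the doxorubicin libraries. Otx2, a forebrain gene, was at or under 3 counts in all 9 libraries.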
